A study of Mus musculus with 6 samples.

Results

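Transcripts of the plasma membrane and lysosomal amino acid carriers were examined in mouse bone marrow-derived macrophages, in 3 wild type (WT) libraries and 3 libraries whose genotype label is Mettl3-/- (KO). The genes were taken by name: every row of the deposited table whose symbol begins with Slc1a, Slc3a, Slc6a, Slc7a, Slc36a, Slc38a or Slc43a and a number, without pseudogenes. The rule gave 67 of the 55401 genes in the table. Of these, 63 are genes of the carrier families and 4 carry the suffix "os" for the opposite strand (Slc7a6os, Slc36a1os, Slc36a3os and Slc6a19os), so they share a name with a carrier and not its function. The bone marrow came from C57BL/6 mice and was grown for 7 days with 40 ng/mL M-CSF, the growth factor that drives macrophage differentiation, and 10% serum. Both groups share these conditions. The labels speak of a treatment after this growth without naming it, and they do not say how Mettl3, the gene for the methyltransferase that places N6-methyladenosine on messenger RNA, was deleted, or whether the 3 libraries of a group came from separate mice. The p-values therefore measure only the spread between these libraries, which may be technical.

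Amino acids cross membranes through carriers that differ in substrate and driving force. The SLC7 light chains are exchangers that reach the cell surface joined to a heavy chain of SLC3; SLC1, SLC6 and SLC38 carriers mostly use the sodium gradient, SLC36 carriers use protons, and several SLC36 and SLC38 proteins work at the lysosome, where they release amino acids or take part in signalling to the growth kinase mTORC1. Macrophages depend on this uptake: cystine, brought in by the product of Slc7a11 in exchange for glutamate, feeds glutathione, and arginine feeds nitric oxide synthase and arginase. When amino acids run short, the transcription factor ATF4 raises many carrier genes, and NRF2 raises Slc7a11 under oxidative stress.

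Library totals ran from 67280390 to 77997742 estimated counts, and correlations of log2 counts scaled to depth lay between 0.975 and 0.979 within groups and between 0.971 and 0.975 across them. Mettl3 itself did not follow the label: its FPKM (fragments per kilobase of transcript, scaled to sequencing depth) was 2.62, 2.91 and 2.26 in WT against 2.504, 2.56 and 2.93 in KO, a log2 fold change of 0.02, also called the log2 ratio here (labelled KO over WT, SE 0.11, adjusted p = 0.93 in edgeR's quasi-likelihood test). The value is a total per gene and does not tell exons apart, and the sign turned to -0.07 without WT library 3 and to -0.06 without KO library 3. Directions below are therefore those of the libraries labelled KO. All 8 macrophage markers were detected, among them Csf1r (569 FPKM in WT, 687 in labelled KO) and Adgre1 (492 and 396 FPKM). Their summed level was 16333 to 16679 FPKM in WT and 8357 to 8445 in labelled KO, a difference that lay mostly in Lyz2 (14189 and 6012 FPKM), with 3 of the 8 called higher and 3 lower. Of 5 monocyte markers, 4 were called higher and 0 lower, and their summed level was 172.7 to 179.7 FPKM in WT and 233.7 to 240.1 in labelled KO. Neutrophil markers summed to 51.2 to 57.8 and 44.4 to 54.4 FPKM, with 1 of 6 tested called in each direction (Mpo higher and Ltf lower). Beside these marker counts, 7.01% of all tested genes were called higher and 5.67% lower. The lists for T and NK, B and plasma, mast, dendritic, erythroid, stromal and endothelial cells and adipocytes each summed to at most 8.28 FPKM in any library. Without overlap between groups, the T and NK list summed to 6.53 to 6.90 FPKM in WT and 7.98 to 8.28 in labelled KO (adjusted p in edgeR's test from 0.17 to 0.721 for its 6 genes), and the endothelial list to 7.04 to 7.40 and 5.65 to 6.43 FPKM, with Pecam1 called lower. In the stromal list Dcn was called higher. Siglech, Cd209a, Hba-a1, Hbb-bs, Fcer1a, Tpsb2, Adipoq and Lep were listed at 0 in all 6 libraries. The part of these other cell types in the transporter results was not tested, and in bulk RNA fewer cells of a type and less RNA per cell cannot be told apart.

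Slc7a11 had the smallest adjusted p of the 33 genes tested, and its promoter, with that of Slc38a2, is shown because these were the promoters with a match when 2 short motifs of the amino acid stress and antioxidant responses were searched in 5 of the 6 called genes. The sequences are RefSeq promoters of build GRCm38.p6, the 250 bases before a transcript start, read 5′ to 3′ on the gene's strand, with motif matches in capitals. Slc7a11 lies on the minus strand at chr3:50443614-50443863, and Slc38a2 on the minus strand at chr15:96699729-96699978.
Slc7a11: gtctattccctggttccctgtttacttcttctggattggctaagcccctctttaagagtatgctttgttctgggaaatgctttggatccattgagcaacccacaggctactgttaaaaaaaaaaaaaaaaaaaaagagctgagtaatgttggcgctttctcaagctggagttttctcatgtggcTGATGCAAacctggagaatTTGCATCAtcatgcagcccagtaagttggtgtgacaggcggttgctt
Slc38a2: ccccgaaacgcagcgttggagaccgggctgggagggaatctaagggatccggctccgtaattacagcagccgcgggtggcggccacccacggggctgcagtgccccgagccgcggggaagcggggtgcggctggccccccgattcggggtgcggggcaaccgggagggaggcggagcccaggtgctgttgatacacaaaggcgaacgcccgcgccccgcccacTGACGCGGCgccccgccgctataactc
The capitals in Slc7a11 mark 2 matches to TGATGNAA, the core of the element bound by ATF4 with C/EBP proteins, 1 on each strand, whose first bases lie 66 and 47 bases before the start. The match in Slc38a2 is to TGACNNNGC, the core of the antioxidant response element bound by NRF2, 27 bases before the start. Both strands were searched over the window from 250 bases before to 50 after each start, and the 2 motifs do not overlap here. Of all 32851 RefSeq promoters, 3.97% held TGATGNAA at least once and 0.07% (23 promoters) held it 2 or more times, while 12.4% held TGACNNNGC. The promoter table matched 45 of the 67 genes by symbol, with 66 promoters. Of those 66, 5 held TGATGNAA (in Slc7a11, Slc7a7, Slc1a4 and Slc6a21) and 11 held TGACNNNGC. The windows of Slc38a10, Slc38a6 and Slc6a20a held neither motif, which says only that these letters are not in those windows. Slc6a6 has no entry in the table.

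The amino acid carrier transcripts spanned a range from over 100 FPKM to none, and 3 genes made up most of the signal. In each WT library Slc6a6, Slc3a2 and Slc43a2 together held 62.3% to 63.7% of the summed FPKM of the 67 genes, and in each labelled KO library 60.2% to 61.5%. Slc6a6, which encodes the taurine carrier, was highest at 117 ± 1.43 FPKM in WT (SD, n = 3), at the 97.8th percentile of the tested genes by mean FPKM over all libraries. Slc3a2, the heavy chain also known as CD98, followed at 102 ± 1.49 and Slc43a2, a sodium-independent carrier of large neutral amino acids, at 92.0 ± 0.348 FPKM. The next were the light chain gene Slc7a8 (39.2 ± 0.404 FPKM), the lysosomal proton-coupled carrier gene Slc36a1 (28.9 ± 0.886) and Slc38a10 (18.2 ± 0.163). In all, 9 of the 67 averaged at least 10 FPKM over the 6 libraries, 13 lay between 1 and 10, and 11 further genes below 1 FPKM still passed the filter on low counts.

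The order of levels in WT was well separated at the top and blurred below. Among the 24 genes with a mean of at least 0.5 FPKM, 15 of the 23 neighbouring pairs had WT ranges that did not overlap, including every step from Slc6a6 down to Slc7a7. The 8 pairs whose WT libraries overlapped were Slc7a7 and Slc38a7 (13.1 and 12.2 FPKM), Slc6a12 and Slc6a8 (9.01 and 8.54), Slc6a8 and Slc38a2 (8.54 and 8.34), Slc1a5 and Slc7a11 (4.11 and 3.81), Slc7a6os and Slc7a6 (3.15 and 2.83), Slc6a13 and Slc38a9 (1.698 and 1.68), Slc43a3 and Slc7a5 (1.399 and 1.14), and Slc7a1 and Slc7a2 (0.617 and 0.476). In WT, replicate spread was small for the abundant genes, with a coefficient of variation of 0.378% for Slc43a2 and 1.22% for Slc6a6. In labelled KO it was 12.9% for Slc43a2 and 1.35% for Slc6a6. For Slc6a8 the coefficient of variation was 35.7% in WT, where library 3 stood above the others.

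**Figure D1:**
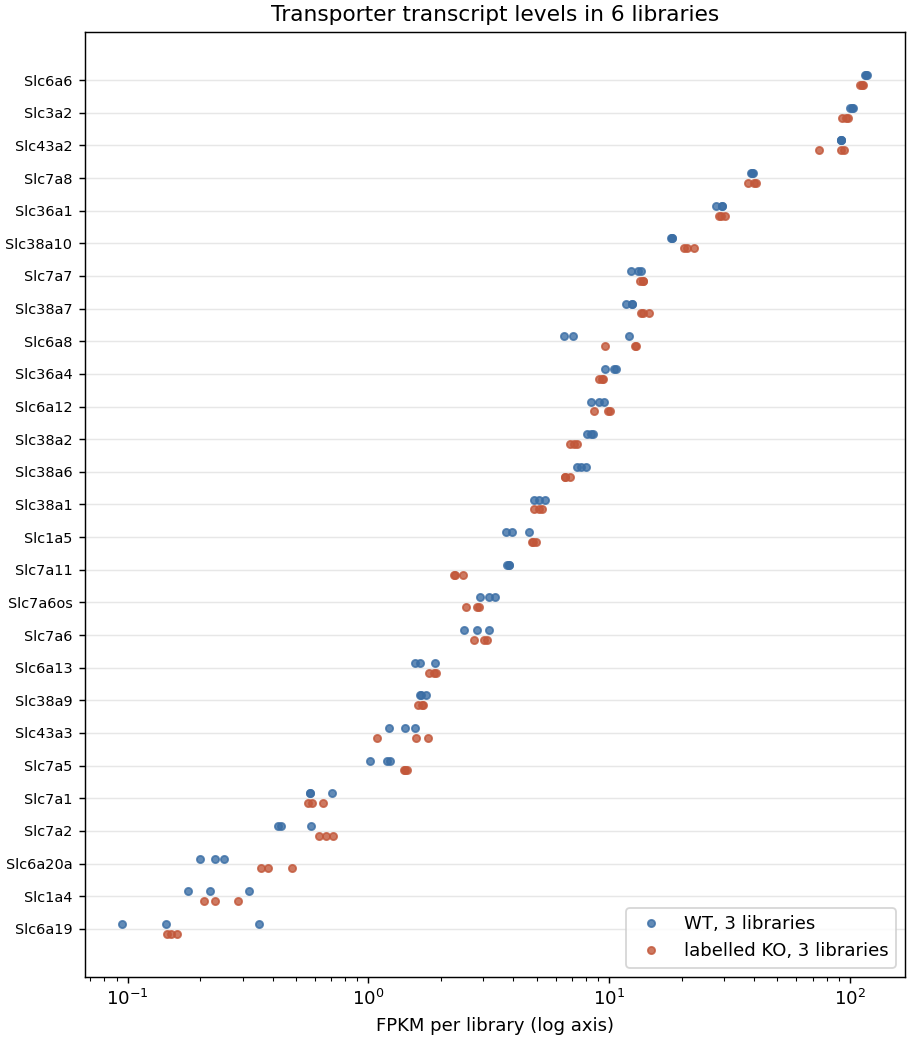
FPKM of the 27 tested genes with a mean of at least 0.1 FPKM, on a log axis, with 1 point per library (blue for WT and red for labelled KO, 3 libraries each) and genes ordered by mean FPKM over all libraries. Slc6a6, Slc3a2 and Slc43a2 lie near 100 FPKM, and the red points of Slc7a11 all lie left of its blue points.

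Of the 67 genes, 34 did not pass the filter on low counts, 31 of them carrier genes and the other 3 the antisense Slc36a1os, Slc36a3os and Slc6a19os. The 20 carrier genes listed at 0 in all 6 libraries included the monoamine carrier genes Slc6a2 and Slc6a3, the glycine carrier gene Slc6a5, the proline carrier gene Slc6a7, the glutamate carrier genes Slc1a6 and Slc1a7, the light chain genes Slc7a9, Slc7a10, Slc7a12 and Slc7a13, and Slc38a3, Slc38a5, Slc38a8 and Slc38a11. The other 11 (Slc1a1, Slc1a2, Slc1a3, Slc3a1, Slc6a4, Slc6a15, Slc6a17, Slc6a20b, Slc7a14, Slc7a15 and Slc43a1) had at most 24 estimated counts in any library. Slc3a1, the heavy chain of the kidney and gut cystine carrier, had 8, 8 and 4 estimated counts in WT and was listed at 0 in the 3 labelled KO libraries. Its exons share 26.5% of their bases with Prepl on the opposite strand, which was at 2.71 and 3.104 FPKM.

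The differences between the groups were mostly small. Of the 33 genes tested (32 carrier genes and Slc7a6os), 6 were called, 2 of them higher and 4 lower in labelled KO, at a Benjamini-Hochberg adjusted p under 0.05 in edgeR's quasi-likelihood test over all 16256 tested genes. That is 18.2% of them, where 12.7% of all tested genes were called, 7.01% higher and 5.67% lower. Leaving out 1 library gave 3 calls without WT library 1 or KO library 1, 4 without WT library 2 or 3 and 5 without KO library 2 or 3, and 1289 to 1366 in place of 2060 over all genes. The genes that rose were Slc38a10 and Slc6a20a, and those that fell were Slc7a11, Slc38a2, Slc38a6 and Slc6a6. At an unadjusted p under 0.05 there were 14. The share of all tested genes at that unadjusted threshold is not given here. This count, and those by family below, therefore cannot be set against it. The median log2 ratio of the 33 genes was -0.04, beside -0.01 over all tested genes, and the median absolute value was 0.18 in both. The FPKM ranges of the groups did not overlap for 14 of the 33 genes (42.4%), 6 higher and 8 lower in labelled KO, where 33.8% of all tested genes had ranges that did not overlap. The summed FPKM of all 67 genes was 493 ± 5.04 in WT and 484 ± 16.0 in labelled KO (SD, n = 3; exact two-sided permutation p = 0.4, where 3 against 3 cannot go below 0.1).

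**Figure D2:**
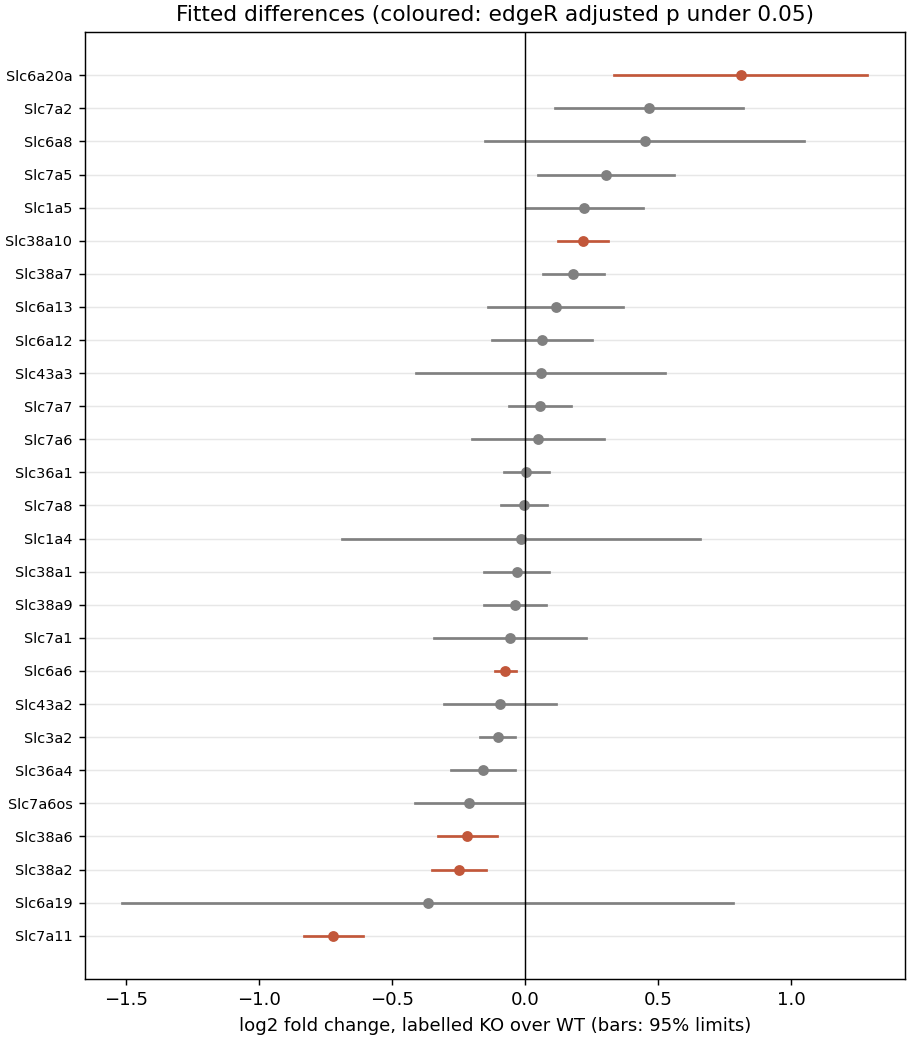
Log2 fold change (labelled KO against WT) of the same 27 genes, with bars for the 95% limits of the edgeR fit and the 6 called genes in red. Slc7a11 lies farthest to the left at -0.72, and the limits of Slc6a20a are the widest of the called genes.

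Slc7a11 encodes xCT, the light chain that exchanges extracellular cystine for intracellular glutamate. The gene (ENSMUSG00000027737) spans positions 49892526 to 50443614 of mm10 chromosome 3, minus strand. Its FPKM was 3.78, 3.83 and 3.84 in WT and 2.47, 2.28 and 2.26 in labelled KO. Every labelled KO library was below every WT library, and the coefficient of variation in WT was 0.832%. The log2 ratio was -0.72 with an SE of 0.046 (edgeR adjusted p = 0.000314). Its 95% limits were -0.83 and -0.61, and the linear ratio was 0.606. The exact two-sided permutation test on FPKM gave p = 0.1, the smallest that 3 against 3 libraries allow. Without any 1 library the edgeR adjusted p stayed between 0.00111 and 0.00299, and the 9 other settings also kept the call. The motif pair in capitals above belongs to this gene's promoter.

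None of the other 4 tested light chain genes was called in edgeR's test or in DESeq2, and 1 of them, Slc7a5, had an unadjusted p under 0.05. Slc7a8, the light chain of the LAT2 exchanger, read 39.6, 38.8 and 39.1 FPKM in WT against 39.8, 37.6 and 40.9 in labelled KO, and its ranges overlapped (log2 ratio -0.01, 95% limits -0.09 and 0.08). Slc7a7, which with CD98 forms the y+LAT1 exporter of cationic amino acids, read 13.2, 12.3 and 13.6 FPKM and 13.8, 13.5 and 13.9 FPKM (log2 ratio 0.06, 95% limits -0.06 and 0.17). Slc7a7 shares 7.00% of its exonic bases with Oxa1l on the opposite strand, at 14.9 FPKM in WT against 14.4 in labelled KO, and reads from the overlap cannot be assigned. Slc7a6, the light chain of y+LAT2, averaged 2.83 and 2.95 FPKM and did not pass (log2 ratio 0.05 with SE 0.10). Slc7a5, the light chain of LAT1, read 1.01, 1.195 and 1.22 FPKM in WT and 1.42, 1.402 and 1.45 in labelled KO. Its labelled KO values all lay above those of WT, but the difference did not pass (log2 ratio 0.30 with SE 0.11, edgeR adjusted p = 0.128).

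The heavy chain gene Slc3a2 lay just outside the threshold. It read 102, 103 and 100.5 FPKM in WT and 93.1, 96.0 and 98.6 in labelled KO, with no overlap (log2 ratio -0.10 with SE 0.028, edgeR adjusted p = 0.0590). Without KO library 3 the edgeR adjusted p was 0.0490. The light chains that pair with it (Slc7a5, Slc7a6, Slc7a7, Slc7a8, Slc7a10 and Slc7a11) summed to 60.0 ± 0.935 FPKM in WT and 59.9 ± 1.92 in labelled KO (SD, n = 3), a scale that is per transcript length and so can be set across genes. Slc3a2 was thus 1.699 ± 0.0486 times the summed light chains in WT and 1.602 ± 0.0584 times in labelled KO (exact two-sided permutation p = 0.1, the smallest possible). Slc7a8 made up 65.3% ± 0.472 of the light chain FPKM in WT and 65.9% ± 0.683 in labelled KO. Slc7a7 made up 21.8% ± 0.851 and 22.9% ± 0.391. The share of Slc7a11 was 6.22%, 6.49% and 6.36% in WT against 4.09%, 3.94% and 3.68% in labelled KO, and that of Slc7a5 was 1.91% ± 0.210 and 2.38% ± 0.0383.

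**Figure D3:**
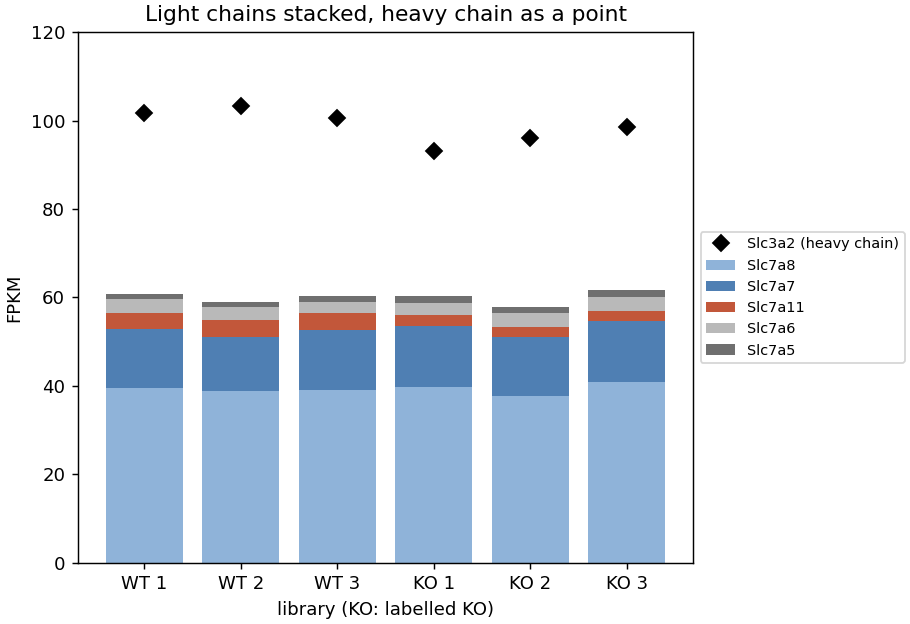
FPKM in each of the 6 libraries of 5 light chain genes (stacked bars) and of their heavy chain gene Slc3a2 (black diamonds). Slc7a8 is the largest block in every bar, the red block of Slc7a11 is thinner in the 3 labelled KO libraries, and the summed height is 60.0 FPKM on average in WT and 59.9 in labelled KO.

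The SLC38 family, sodium-coupled carriers of glutamine, alanine and other neutral amino acids, held 3 of the 6 called genes, 1 higher and 2 lower among 7 tested, where 12.7% of all tested genes were called in either direction. With any 1 library left out, 1 to 3 of the 7 were called. Slc38a2, which encodes SNAT2, a carrier known to be induced when amino acids are scarce, fell. It read 8.07, 8.39 and 8.56 FPKM in WT and 7.33, 6.85 and 7.12 in labelled KO, with no overlap (log2 ratio -0.25 with SE 0.042, edgeR adjusted p = 0.0126). The call of Slc38a2 held without any 1 library (edgeR adjusted p from 0.0243 to 0.0475). Slc38a6 read 8.001, 7.36 and 7.66 FPKM in WT against 6.53, 6.91 and 6.56 in labelled KO, and it fell by 0.22 on the log2 scale (SE 0.046, edgeR adjusted p = 0.0275). This call was lost without WT library 1 or 3 or KO library 1 or 3 (edgeR adjusted p from 0.0760 to 0.0910). With all 6 libraries, 5 of 9 other settings also lost the call of Slc38a6, among them every limma fit (adjusted p from 0.0558 to 0.0716). Slc38a10, a little-studied member reported to carry glutamine, glutamate and aspartate, rose: it read 18.02, 18.3 and 18.3 FPKM in WT and 22.5, 21.1 and 20.6 in labelled KO. Its log2 ratio was 0.22 (SE 0.039, edgeR adjusted p = 0.0158), a call lost without any 1 WT library (edgeR adjusted p from 0.0516 to 0.0560). Slc38a10 shares 5.72% of its exonic bases with Gm11769 on the opposite strand, which was at 0.410 and 0.427 FPKM.

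The gene of Slc38a2 (ENSMUSG00000022462) lies at 96687392 to 96699730 of mm10 chromosome 15 on the minus strand, and that of Slc38a6 (ENSMUSG00000044712) at 73286779 to 73354049 of chromosome 12 on the plus strand. Slc38a10 (ENSMUSG00000061306) lies at 120103960 to 120151346 of chromosome 11 on the minus strand.

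Several carrier genes are close neighbours with unlike levels. Slc38a1, Slc38a2 and Slc38a4 lie in a row on chromosome 15, with gaps of 44.5 and 295 kb. Slc38a1, which encodes the glutamine carrier SNAT1, read 5.14, 4.88 and 5.39 FPKM in WT and 4.86, 5.27 and 5.11 in labelled KO (log2 ratio -0.03, 95% limits -0.15 and 0.09). Slc38a4 had 40, 0 and 4 estimated counts in WT and 23, 4 and 15 in labelled KO. Neither Slc38a1 nor Slc38a4 passed the test. On chromosome 11, Slc36a1 (28.9 FPKM in WT) lies 19.3 kb from Slc36a2 (0.0301 FPKM), and on chromosome 6, Slc6a12 (9.01 FPKM) lies 5.34 kb from Slc6a13 (1.698 FPKM). On chromosome 2, Slc43a3 (1.399 FPKM) lies 73.0 kb from Slc43a1, which was listed at 0 in 5 of 6 libraries.

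Slc38a7 and Slc38a9 encode lysosomal carriers, SLC38A7 for glutamine and asparagine export and SLC38A9 for arginine-gated release of amino acids and signalling to mTORC1. Slc38a7 read 12.5, 12.4 and 11.8 FPKM in WT and 13.5, 13.8 and 14.7 in labelled KO, with no overlap, but it did not pass (log2 ratio 0.18 with SE 0.048, edgeR adjusted p = 0.0577). DESeq2 gave an adjusted p of 0.0218 for Slc38a7, and limma on log2(FPKM + 0.1) gave 0.0462. Slc38a9 averaged 1.68 and 1.65 FPKM and did not pass (log2 ratio -0.04, 95% limits -0.15 and 0.08).

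**Figure D4:**
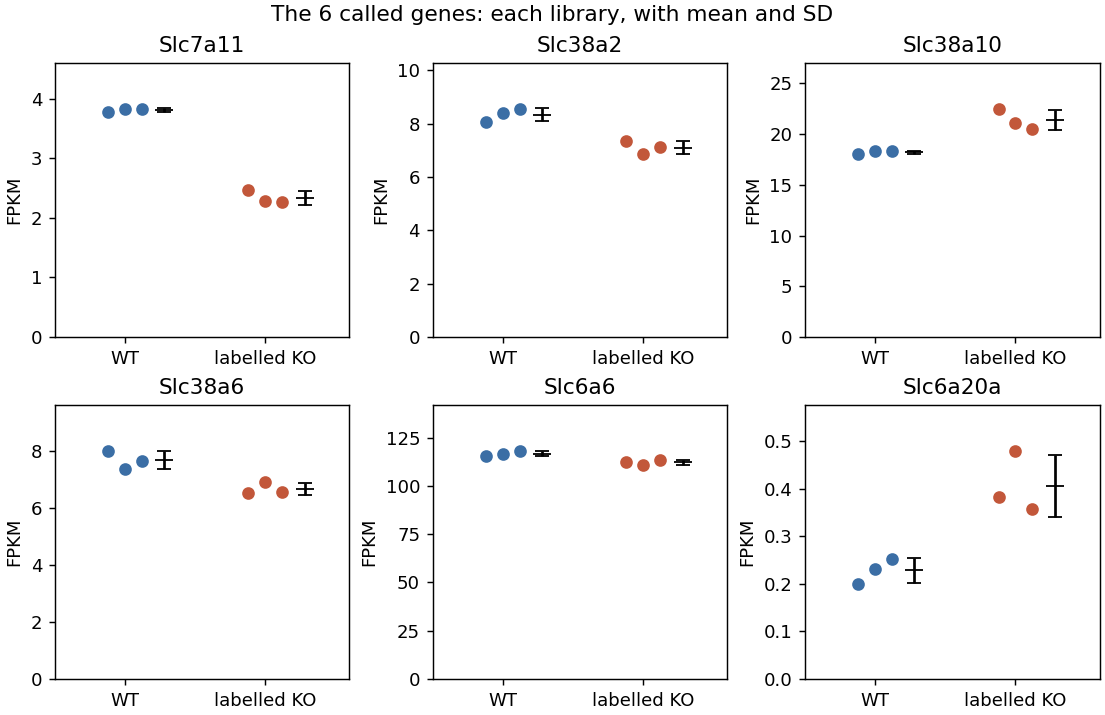
FPKM of the 6 called genes in each library (points, blue for WT and red for labelled KO), with the mean and SD of 3 libraries beside them in black and every axis starting at 0. No red point overlaps the blue range in any panel; the gap is small against the level for Slc6a6 and large for Slc7a11 and Slc6a20a.

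In SLC6, sodium and chloride coupled carriers, 1 of 7 tested genes rose and 1 fell, where 12.7% of all tested genes were called. With any 1 library left out, 0 or 1 of the 7 were called. Slc6a6 read 115, 117 and 118 FPKM in WT and 112, 111 and 114 in labelled KO, without overlap, and its log2 ratio was -0.07 (SE 0.017, edgeR adjusted p = 0.0335), a ratio of 0.949. This call was lost without WT library 1, 2 or 3 or KO library 1 or 2 (edgeR adjusted p from 0.0539 to 0.0978). With all 6 libraries, 7 of 9 other settings also lost the call of Slc6a6. Among them were DESeq2 (adjusted p = 0.0743) and every limma fit (adjusted p from 0.127 to 0.198). Slc6a20a, which encodes a carrier of proline and other imino acids, had 63, 73 and 80 estimated counts in WT and 132, 152 and 129 in labelled KO, or 0.2005, 0.232 and 0.252 FPKM against 0.382, 0.4795 and 0.357. The log2 ratio was 0.81 (SE 0.20, edgeR adjusted p = 0.0452), and its level lay at the 19.4th percentile of tested genes. The call was lost when any 1 library was left out (edgeR adjusted p from 0.0769 to 0.128). With all 6 libraries, 5 of 8 other settings also lost the call of Slc6a20a. Slc6a6 (ENSMUSG00000030096) lies at 91684053 to 91759066 of mm10 chromosome 6 on the plus strand, and Slc6a20a (ENSMUSG00000036814) at 123634770 to 123678885 of chromosome 9 on the minus strand. Exons of Slc6a20a share 13.8% of their bases with Gm17120 on the opposite strand, which was listed at 0.

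Slc6a8, the creatine carrier gene, had 1 WT library apart from the other two. It read 7.099, 6.47 and 12.04 FPKM in WT and 9.64, 12.8 and 12.9 in labelled KO, so WT library 3 lay within the labelled KO range (log2 ratio 0.45 with SE 0.25, edgeR adjusted p = 0.321). Without WT library 3 the log2 ratio of Slc6a8 was 0.78 and the edgeR adjusted p 0.0355. Slc6a12 and Slc6a13, carriers of betaine and GABA, averaged 9.01 and 1.698 FPKM in WT against 9.51 and 1.86 in labelled KO, and neither passed (log2 ratio 0.06 with SE 0.078 for Slc6a12 and 0.11 with SE 0.11 for Slc6a13). Slc6a19 had 37 to 135 estimated counts in WT and 60 to 68 in labelled KO, and Slc6a9 had 25, 50 and 28 in WT and 0, 31 and 0 in labelled KO. Neither passed, although without KO library 2 Slc6a9 did (edgeR adjusted p = 0.0242).

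The SLC36 and SLC43 families held no called gene among 4 and 2 tested in edgeR's test. At an unadjusted p under 0.05 there were 2 in SLC36 (Slc36a3 and Slc36a4) and 0 in SLC43, and DESeq2 called 1 (Slc36a4) and 0. For Slc36a2 and Slc36a3 DESeq2 gave no adjusted p. Slc36a1, whose product exports small neutral amino acids from the lysosome, read 29.3, 27.8 and 29.4 FPKM in WT and 29.1, 28.5 and 30.2 in labelled KO, within overlapping ranges (log2 ratio 0.00, 95% limits -0.08 and 0.09). Slc36a4, a carrier of proline and tryptophan, read 10.4, 9.59 and 10.7 FPKM in WT and 9.44, 9.05 and 9.34 in labelled KO (log2 ratio -0.16 with SE 0.050, edgeR adjusted p = 0.0953). Without WT library 2 the edgeR adjusted p of Slc36a4 was 0.0450. Slc36a2 had 0 to 12 estimated counts in WT and 4 to 15 in labelled KO, and Slc36a3 had 10, 15 and 11 against 0, 4 and 4; neither passed.

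Slc43a2 was near level in 5 libraries and lower in KO library 2. It read 92.3, 91.6 and 92.1 FPKM in WT and 94.98, 74.3 and 92.3 in labelled KO, with KO library 2 below all others (log2 ratio -0.09 with SE 0.088, edgeR adjusted p = 0.566). Without KO library 2 the log2 ratio of Slc43a2 was 0.01. Slc43a2 shares 9.18% of its exonic bases with the antisense gene Gm45606, which was called lower (10.9 and 8.46 FPKM, log2 ratio -0.39, edgeR adjusted p = 0.0107). Its relative Slc43a3, reported to carry purine bases and not amino acids, was also lowest in KO library 2, at 1.42, 1.22 and 1.56 FPKM in WT and 1.76, 1.083 and 1.58 in labelled KO. Slc43a3 did not pass (log2 ratio 0.06 with SE 0.19).

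Among SLC1 carriers and the cationic carriers of SLC7, none of the 2 and 4 tested genes was called in edgeR's test. At an unadjusted p under 0.05 there was 1 in each (Slc1a5 and Slc7a2), and DESeq2 called 0 and 1 (Slc7a2). For Slc7a3 and Slc7a4 DESeq2 gave no adjusted p. Slc1a5, which encodes the glutamine carrier ASCT2, read 3.71, 3.95 and 4.66 FPKM in WT and 4.76, 4.97 and 4.82 in labelled KO (log2 ratio 0.22 with SE 0.092, edgeR adjusted p = 0.185). The ranges did not overlap, and without WT library 3 the edgeR adjusted p was 0.0477. Slc1a4, for serine and other small neutral amino acids, had 54 to 97 estimated counts in WT and 63 to 99 in labelled KO and did not pass. The arginine carrier gene Slc7a2 (CAT2), which macrophages raise on activation, read 0.577, 0.433 and 0.4197 FPKM in WT and 0.664, 0.712 and 0.622 in labelled KO. Its log2 ratio was 0.46 (SE 0.15, edgeR adjusted p = 0.0973), with an edgeR adjusted p of 0.0323 without WT library 1. Slc7a1 (CAT1), the widely expressed arginine carrier, averaged 0.617 and 0.599 FPKM (log2 ratio -0.06, 95% limits -0.35 and 0.23). Slc7a3 and Slc7a4 had at most 19 and 36 estimated counts in any library, and neither passed. Slc7a6os, the neighbour of Slc7a6 and not a carrier, averaged 3.15 and 2.75 FPKM (log2 ratio -0.21 with SE 0.085, edgeR adjusted p = 0.174).

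**Figure D5:**
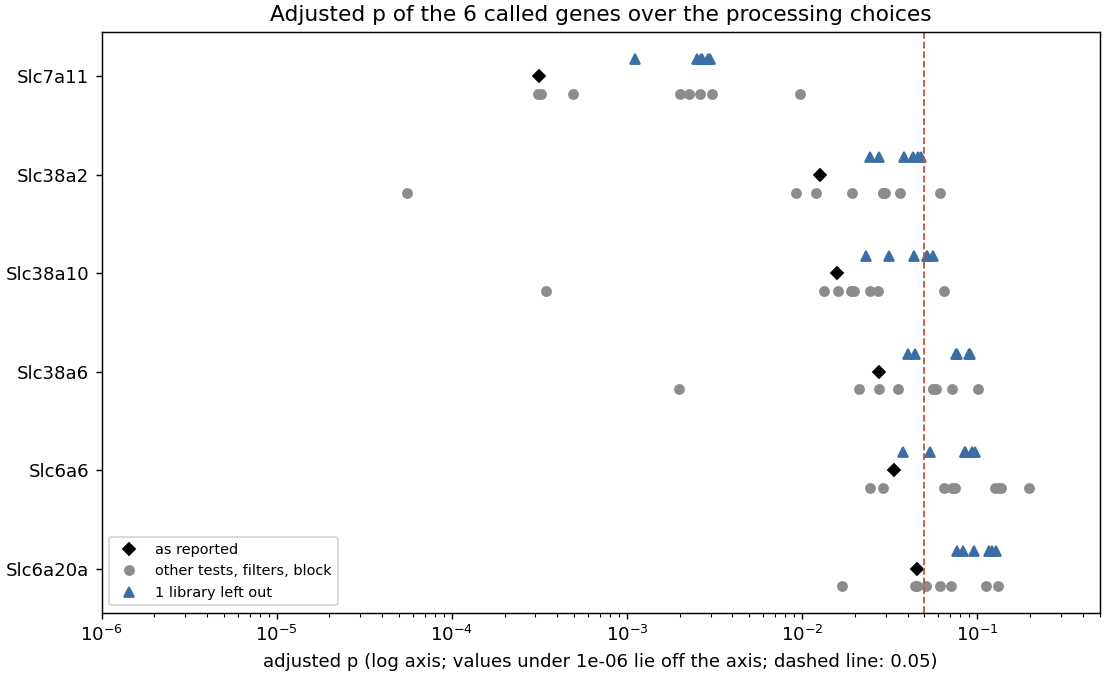
Adjusted p, on a log axis, of the 6 called genes as reported (diamonds), under other tests, filters and the block on replicate number (circles) and with 1 library left out (triangles), with a dashed line at 0.05. All points of Slc7a11 lie left of the line, its DESeq2 point (3.70e-31) lies beyond the left edge, and those of Slc6a6 and Slc6a20a fall mostly right of the line.

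The 4 lists of genes around the carriers were read in the same fit. Of 18 tested genes for other amino acid and oligopeptide transporters, 2 rose and 1 fell (median log2 ratio 0.08), where 12.7% of all tested genes were called. Mfsd12, required for cysteine import into lysosomes and melanosomes, fell from 75.9 ± 0.708 to 59.9 ± 1.12 FPKM (SD, n = 3; log2 ratio -0.36, edgeR adjusted p = 0.000331). Slc16a10, a carrier of aromatic amino acids, rose from 13.4 to 15.2 FPKM (log2 ratio 0.17), a call lost without WT library 1, 2 or 3 or KO library 1 or 3 (edgeR adjusted p from 0.0575 to 0.0967). Slc25a29, a mitochondrial carrier of basic amino acids, rose from 0.0983 to 0.258 FPKM (log2 ratio 1.37), a call lost without any 1 library (edgeR adjusted p from 0.0550 to 0.104).

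Genes of amino acid sensing upstream of mTORC1 had 4 higher and 5 lower among 34 tested (median log2 ratio -0.03), where 7.01% of all tested genes were called higher and 5.67% lower. With any 1 library left out, 4 to 6 genes of the list were called. Fnip2 and Fnip1, which encode the partners of folliculin, fell from 49.3 ± 0.242 to 28.3 ± 0.848 and from 16.8 ± 0.332 to 13.7 ± 0.274 FPKM (SD, n = 3), log2 ratios of -0.82 and -0.31 (edgeR adjusted p = 2.5e-05 and 0.0018). The Rag GTPase genes Rragc and Rragd fell by 0.22 and 0.41 on the log2 scale, from 80.3 to 69.9 and from 8.43 to 6.43 FPKM. Castor2, a relative of the arginine sensor, rose from 6.26 to 7.88 FPKM (log2 ratio 0.31). The calls of Fnip1, Fnip2, Rragc and Castor2 held without any 1 library, and that of Rragd was lost without WT library 2 (edgeR adjusted p = 0.0507). Itfg2 (-0.45), Wdr24 (0.24) and the sestrin gene Sesn1 (0.12) were called but not without any 1 library (edgeR adjusted p from 0.0712 to 0.135). Sesn3 (0.37) was called but not without WT library 1, 2 or 3 or KO library 2 or 3 (edgeR adjusted p from 0.0598 to 0.0792).

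ATF4 and its targets outside the transporters gave 2 higher and 1 lower of 22 tested (median log2 ratio -0.07). Over all tested genes 12.7% were called, 7.01% higher and 5.67% lower. Atf5 fell from 33.3 ± 0.869 to 20.5 ± 0.504 FPKM (SD, n = 3; log2 ratio -0.72, edgeR adjusted p = 0.000194). Cebpb rose by 0.34 on the log2 scale, a call lost without WT library 3 or KO library 1, 2 or 3 (edgeR adjusted p from 0.0501 to 0.0555), and Herpud1 by 0.27, a call lost without any 1 library (0.0549 to 0.0918). Atf4 itself, named after its values were seen, read 23.5, 46.6 and 22.7 FPKM in WT against 42.6, 40.9 and 41.9 in labelled KO; it did not pass (log2 ratio 0.42, edgeR adjusted p = 0.403).

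In the list of cystine use and glutathione, 2 of 16 tested genes rose and 2 fell (median log2 ratio -0.02). Of all tested genes, 7.01% were called higher and 5.67% lower. Hmox1, heme oxygenase, fell from 492 ± 1.08 to 403.5 ± 4.2 FPKM (SD, n = 3; log2 ratio -0.30, edgeR adjusted p = 0.000101), and Gsr, glutathione reductase, rose from 52.6 to 62.0 FPKM (0.22). Chac2, which breaks down glutathione, rose by 0.58, a call lost without WT library 1 or 3 or KO library 2 (edgeR adjusted p from 0.0584 to 0.0594). Nqo1 fell by 1.15 on the log2 scale, a call lost without WT library 1, 2 or 3 or KO library 1 or 2 (edgeR adjusted p from 0.0659 to 0.121).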

How the data were processed

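RNA was sequenced from macrophage cultures, 3 libraries labelled WT and 3 labelled KO, with 67280390 to 77997742 estimated counts each. The submitters' processing notes name HISAT2 2.0.4, StringTie 1.3.4d, cutadapt 1.9 and build mm10; settings, annotation release, strand and filters are not given there. Per the file headers, the authors deposited FPKM and estimated counts per gene. A count of 0 carries an FPKM of 0.0001. Low estimated counts are no single reads: among counts from 1 to 20, multiples of 4 were 36.9% to 40.4% (25% if spread evenly).

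Rounding the estimated counts came first. They then went into edgeR 4.0.16 (R 4.3.3) with TMM factors, filterByExpr (minimum count 10, total 15), glmQLFit and glmQLFTest, without a block. Benjamini-Hochberg adjustment ran over all 16256 tested genes, and a gene was called under 0.05. The SE is the absolute log2 fold change over the root of F. FPKM is given as mean ± SD of 3 libraries. The test was also run on simulated data with known changes, where it missed most of them. Far fewer genes were changed there than were called here, so the share missed need not hold for these data. A gene that did not pass is in any case not shown to be unchanged. Alternatives used DESeq2 1.42.0, limma 3.58.1 on log2(FPKM + 0.1, 1 or 0.01), other filters and scaling, a replicate block and each library left out.

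The members and lists were chosen with earlier results of these data known. Every tested member is named. Members listed at 0 throughout are named in part, and 1 is not reported here. Context genes named are the called ones, up to 4 a list by adjusted p; in the mTORC1 list the 5 beyond these, and Atf4, were named after their values were seen. Of the list symbols, Slc66a1 was found as Pqlc2 and Slc66a3 was not matched. Slc6a20a, Slc6a20b and Slc6a21 were placed with SLC6 by name. All 67 genes were in GENCODE M21 (same build), 63 with the same coordinates; gene coordinates printed are those deposited. Without a stated strand, reads of overlapping opposite genes cannot be told apart.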

Additional observations from a re-analysis of the deposited data

How the results depend on the processing

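Of 480 recomputed values of the 33 tested transporter genes, 395 kept their direction and side of the threshold, 37 lost a call, 13 gained one and 35 changed sign, none of these in a called gene. Of 283 values of the named context genes, 207 kept both and 76 lost a call, with no change of sign. Slc7a11 was called under all 15 alternatives.

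Deviations of same-numbered libraries from their group means correlated at -0.021, -0.014 and 0.015 (other pairs -0.012 to 0.026). These values cannot settle whether same-numbered libraries were prepared together, because noise that libraries do not share also gives low correlations. With a replicate block 1 transporter gene was called (0 higher, 1 lower), 1012 over all genes (552 higher, 460 lower), 1 of the other transporters, 5 of mTORC1 sensing, 1 of the ATF4 list, 0 of SLC6 and 0 of SLC38.

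DESeq2 called 4 transporter genes higher and 4 lower. Counted in either direction, it called 1 each in cationic SLC7 (Slc7a2, higher), SLC6 (Slc6a20a, higher) and SLC36 (Slc36a4, lower). With no count filter 1 was higher and SLC6 had 0. A mean FPKM of at least 0.5 left 1 higher and 5 lower. Counted in either direction, this filter gave 1 in SLC3 (Slc3a2, lower) and 1 in SLC6 (Slc6a6, lower). Each limma fit called 2 lower. In SLC6, limma called 0 in either direction or, with pseudocount 1, 1 (Slc6a20a, higher). Without a filter limma called 3 (1 higher). Fits without a filter test more genes, and those with 1 library left out hold fewer samples; otherwise the cause was not tested.

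Signs turned only in uncalled genes. The log2 fold change of Slc38a4 was 0.82 with the block and 0.0065, 0.46 and 0.0065 in limma. Slc7a8 reached 0.0103, 0.0101, 0.0104 and 0.0103 in limma, Slc36a2 0.071, Slc36a1 -0.0001 with the FPKM filter, and Slc1a4 0.0089 with the block and 0.0239, 0.0037, 0.0398 and 0.0239 in limma.

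With 1 library left out, the ranges were 3 to 5 called transporter genes (0 to 2 higher, 2 to 4 lower), 1289 to 1366 over all genes (689 to 760 higher, 551 to 631 lower), and -0.0674 to 0.11 for Mettl3. The context lists, in the order of the report, had 1 to 3, 4 to 6, 1 to 3 and 2 to 5 calls. SLC1, SLC3, cationic SLC7, SLC6 and SLC36 had 0 to 1, light chains 1, SLC38 1 to 3 and SLC43 0. Log2 fold changes ran from -0.16 to 0.0068 for Slc43a2, -0.70 to 0.35 for Slc6a19, -0.0676 to 0.0039 for Slc38a1, -0.12 to 0.0544 for Slc7a1, -0.0361 to 0.13 for Slc7a6, -0.0888 to 0.23 for Slc43a3, -0.81 to 2.59 for Slc38a4, -0.0354 to 0.026 for Slc7a8, -1.16 to 0.26 for Slc36a2, -0.0231 to 0.0199 for Slc36a1 and -0.18 to 0.24 for Slc1a4.

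Counts of 0 to 50 lay behind Slc7a3, Slc7a4, Slc6a9, Slc38a4, Slc36a2 and Slc36a3, none of which was called with all 6 libraries. DESeq2 gave no adjusted p for these genes or for Slc25a29.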
